A study of Homo sapiens with 9 samples.

Results

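The RASSF (Ras-association domain family) genes are a set of tumour suppressor candidates, and their expression was read in HT-29 cells at 3 concentrations of a DNA methylation inhibitor. The members were chosen by name: RASSF1 to RASSF10 are 10 of the 23284 gene symbols in the RNA-Seq files, each stands on 1 entry of every file, and all 10 entered every comparison. HT-29 is an established line of human colon adenocarcinoma cells, grown here as monolayers. Separate cultures received the vehicle DMSO alone (0 µM, the control), 5 µM or 10 µM 5-aza-deoxycytidine (5-Aza) for 5 days, with 3 biological replicates in each group and 9 samples in all. 5-Aza is incorporated into DNA and traps the DNA methyltransferases, so that methylation is lost as cells divide. The replicates are separate dishes of a single line, so the error given is the spread between dishes. Levels are FPKM (fragments scaled to transcript length and to library size), in which fewer cells carrying a transcript and less of it per cell cannot be told apart.

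RASSF proteins carry a domain that binds RAS-like GTPases. The C-terminal members, RASSF1 to RASSF6, place it before a SARAH domain, through which they bind the MST1 and MST2 kinases (genes STK4 and STK3) of the Hippo pathway. The N-terminal members, RASSF7 to RASSF10, hold the RAS-association domain at the start of the protein and lack the SARAH domain. Methylation of the promoter CpG island is a known route by which several of these genes are silenced in tumours, RASSF1 being the best studied.

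The FPKM of a library summed to between 3692498323 and 5908123637, so FPKM serve only to compare samples and genes. Depth, estimated from the steps in the low FPKM values, was between 12845631 fragments (10 µM replicate 1) and 34956270 fragments (5 µM replicate 3). All 8 colon epithelial markers looked at (EPCAM, CDH1, KRT8, KRT18, KRT20, VIL1, CDX2 and CEACAM5) were above 0 in every library. Among 15261 genes above 0 in all 6 libraries, the median log2 difference of 10 µM from 0 µM was -0.23. For genes measured above 0 in every library, median-of-ratios scaling shifts the 10 µM vs. 0 µM differences up by 0.24. The shift is 0.20 for 10 µM vs. 5 µM and 0.04 for 5 µM vs. 0 µM. Genes with a library listed at 0, such as RASSF2, shift by other amounts. Rescaled values are given with the 10 µM vs. 0 µM differences of members measured in every library. A gene was called when the adjusted p from limma with Benjamini-Hochberg adjustment over all genes tested was at most 0.05 and the log2 difference was above 1 or below -1. Log2 differences are on the log2(FPKM + 1) scale.

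Since the treatment acts on DNA methylation, the sequence around the transcription start is shown for 3 members that differ in response, 1 of them rich in CpG and 2 poor in it. The RefSeq promoter table holds 9 starts of 7 members and was made on another assembly, and each 300-base window (250 bases before the start and 50 after it) was placed in GRCh37 by an exact match. The windows of all 35116 promoters held a median of 14 CpG, with quartiles of 4 and 28. The 250 bases before the start are printed 5′ to 3′ on the strand of the gene, with CpG dinucleotides in capitals. RASSF2 was listed at 0 in the control and above 0 at 5 µM, RASSF3 was lower in all treated cultures and has the most CpG, and RASSF9 did not pass the test at either dose.

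RASSF2, GRCh37 chr20:4795794-4796043, minus strand: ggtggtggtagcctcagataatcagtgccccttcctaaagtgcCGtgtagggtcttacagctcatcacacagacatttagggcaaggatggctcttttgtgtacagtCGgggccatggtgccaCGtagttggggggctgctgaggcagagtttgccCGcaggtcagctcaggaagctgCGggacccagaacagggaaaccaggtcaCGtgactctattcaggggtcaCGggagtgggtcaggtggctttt

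RASSF3, GRCh37 chr12:65004025-65004274, plus strand: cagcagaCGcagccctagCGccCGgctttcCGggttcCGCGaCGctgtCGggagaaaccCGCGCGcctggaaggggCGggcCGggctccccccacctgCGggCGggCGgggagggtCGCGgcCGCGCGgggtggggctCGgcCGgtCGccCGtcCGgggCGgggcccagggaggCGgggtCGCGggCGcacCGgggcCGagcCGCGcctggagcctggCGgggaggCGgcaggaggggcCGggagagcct

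RASSF9, GRCh37 chr12:86230188-86230437, minus strand: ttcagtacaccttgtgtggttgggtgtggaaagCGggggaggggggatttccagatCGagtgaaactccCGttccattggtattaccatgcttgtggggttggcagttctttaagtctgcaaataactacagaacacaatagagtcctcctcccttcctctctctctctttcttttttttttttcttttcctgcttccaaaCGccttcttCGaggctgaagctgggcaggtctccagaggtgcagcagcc

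The RASSF3 window held 45 CpG, and 3.48% of all promoters have at least as many. In RASSF2 the window held 7 CpG, and 63.2% of all promoters have at least as many. This RASSF2 start, at position 4795793, lies inside the gene, whose annotated 5′ end is at 4804254 on chromosome 20, so the sequence before the upstream first exon is not the one printed. The same holds for RASSF3, whose start at 65004275 on chromosome 12 lies inside a gene annotated from 64900781. The RASSF9 start, at 86230187, is the annotated 5′ end of its gene. The RASSF9 window held 6 CpG. Among the other windows, RASSF4 had 36 CpG, RASSF1 33, RASSF5 29 and 15 at its 2 starts, and RASSF6 4 and 16. The RASSF1 start, at 50374881, lies inside the gene, whose annotated 5′ end is at 50378411, so its window is not the sequence before the upstream first exon. All 250 bases before the start lie in annotated exons for RASSF1 and for RASSF4. Of the members that rose at 5 µM, RASSF4 thus had a window above the upper quartile of CpG and RASSF2 one below the median. RASSF7, RASSF8 and RASSF10 are named only. A count of CpG says nothing of whether they were methylated in these cultures.

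In untreated HT-29 cells the family was dominated by 1 N-terminal member. RASSF7, which acts in mitotic spindle formation and binds the stress kinase MKK7, took 61.4% ± 2.09 (SD, n = 3) of the summed FPKM of the 10 genes in the control. At 5 µM its share was 59.4% ± 4.31 (SD, n = 3) and at 10 µM 71.6% ± 4.76 (SD, n = 3). In the control RASSF3 and then RASSF1 came next, with ranges that did not overlap those of their neighbours in the order. RASSF6 and RASSF10 followed with overlapping ranges, then RASSF5, then RASSF9 and RASSF4 with overlapping ranges, then RASSF8, and RASSF2 was listed at 0. The span from RASSF7 to RASSF8 was thus from a mean of 1361500 to a mean of 1029.8 FPKM.

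5-Aza moved members within this order without displacing its ends. At 5 µM the order was RASSF7, RASSF3, RASSF1, RASSF6, RASSF5, RASSF10, RASSF4, RASSF9, RASSF8 and RASSF2, and only RASSF5 with RASSF10 and RASSF10 with RASSF4 had overlapping ranges among neighbours. RASSF4 had passed RASSF9, and its range at 5 µM lay above that of RASSF9. At 10 µM the ranges of RASSF6 and RASSF10 and those of RASSF10 and RASSF5 overlapped, and RASSF4 again stood above RASSF9.

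**Figure D1:**
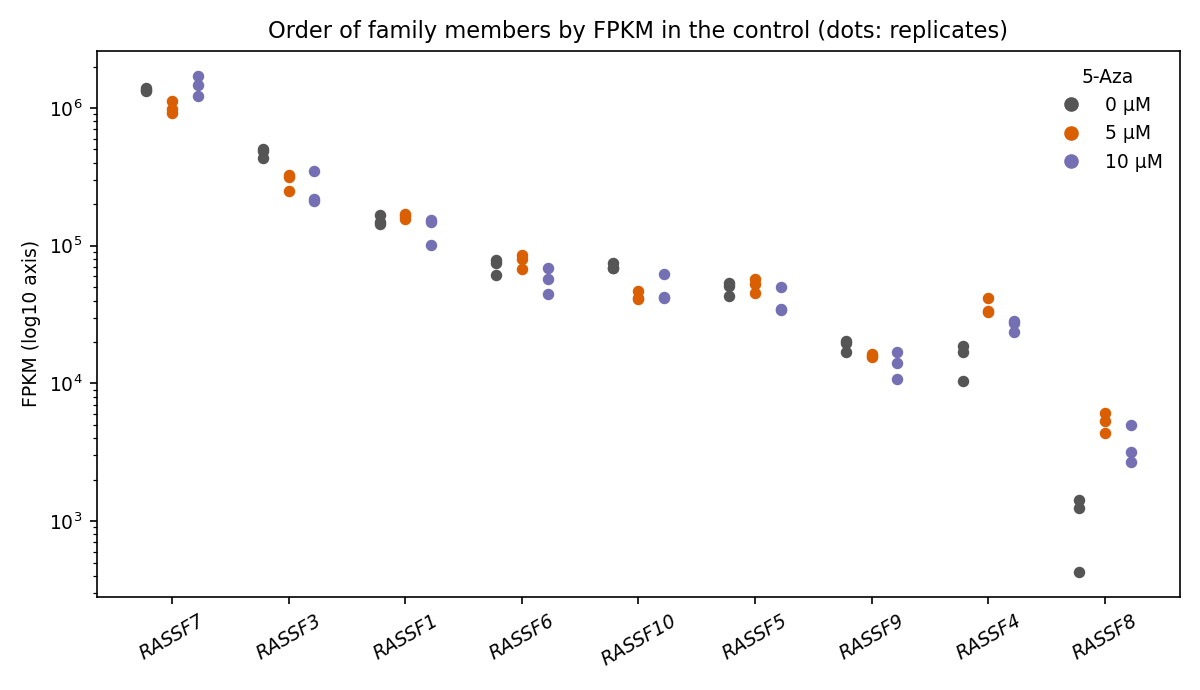
FPKM of 9 members (log10 axis) in the order of their control means, with a dot for each replicate at 0 µM, 5 µM and 10 µM 5-Aza. RASSF7 stands at the top and RASSF8 at the bottom at every dose, the RASSF8 dots at 5 µM and 10 µM lie above those of the control, and RASSF2 is left out because libraries are listed at 0.

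The sum over the family fell from 2217400 ± 70105 (SD, n = 3) FPKM in the control to 1703800 ± 58035 (SD, n = 3) at 5 µM, with no overlap between the groups. At 10 µM it was 2057500 ± 294840 (SD, n = 3), with replicate 1 (1718139.9 FPKM) below the control range, which began at 2137437 FPKM, and replicates 2 and 3 inside it. The C-terminal members summed to 764950 ± 63580, 626110 ± 51588 and 517270 ± 113270 FPKM (SD, n = 3) at 0 µM, 5 µM and 10 µM. For the N-terminal members the sums were 1452400 ± 32757, 1077700 ± 104550 and 1540300 ± 244580 FPKM (SD, n = 3). The C-terminal sums of all treated cultures lay below those of the control, while the N-terminal sums did so only at 5 µM. These sums mostly follow RASSF3 and RASSF7, and were not tested.

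At 5 µM 5-Aza, 3 of the 10 members were called up and none down. The called members were RASSF2, RASSF4 and RASSF8, beside 14.1% of all 20051 genes tested that were called up and 2.17% called down. RASSF3, RASSF7 and RASSF10 were lower by an adjusted p of at most 0.05 but by less than 2-fold, beside 17.7% of all genes that were lower and 21.3% that were higher by that adjusted p at any fold. The groups did not overlap for 7 members, RASSF2, RASSF3, RASSF4, RASSF7, RASSF8, RASSF9 and RASSF10, beside 52.7% of all genes tested. The median log2 difference over the members was 0.08, and it was 0.14 over all genes tested. Among the 15418 genes above 0 in all 6 libraries, as all members but RASSF2 were, it was -0.04. RASSF1, RASSF5 and RASSF6 had overlapping groups.

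RASSF4, a C-terminal member that binds activated RAS, showed the clearest rise among members with many fragments. Its FPKM was 10357, 18808 and 16898 in the control, 41389.7, 33471 and 32977 at 5 µM, and 27603, 23456 and 28274 at 10 µM. All treated cultures lay above all control cultures, and the 5 µM cultures lay above the 10 µM cultures. At 5 µM the mean was 2.34 times that of the control (log2 difference 1.26, standard error 0.25, limma adjusted p = 0.00933). At 10 µM it was 1.72 times the control, which did not pass the test (log2 difference 0.83, standard error 0.28, limma adjusted p = 0.0801), and after median-of-ratios scaling the difference of 1.07 was called (adjusted p = 0.0476). RASSF4 lies on the plus strand of chromosome 10 from 45454855 to 45491339 in GRCh37.

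RASSF4 overlaps DEPP1 (listed as C10orf10), a gene on the opposite strand that shares 695 of the 9481 exonic bases of RASSF4 (7.33%). DEPP1 is known as a target of FOXO transcription factors. It moved the other way, from 69564 ± 1644 (SD, n = 3) FPKM in the control to 45308 ± 1706 (SD, n = 3) under 5 µM, and it stood at 32686 ± 5926 (SD, n = 3) under 10 µM. The C10orf10 fall was within 2-fold at 5 µM (log2 difference -0.62, limma adjusted p = 0.00161) and called at 10 µM (-1.11, limma adjusted p = 0.0125), but rescaled to -0.86 at 10 µM it was not called. The sources used here do not say that reads were counted by strand, so reads in the bases that such overlapping genes share cannot be told apart.

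RASSF8, an N-terminal member found at adherens junctions, was low in the control and rose at 5 µM. Its FPKM was 429, 1421 and 1239 in the control, 4400.5, 5319 and 6142 at 5 µM, and 3151, 5021 and 2690.1 at 10 µM. Every treated culture lay above every control culture, and the ranges at 5 µM and 10 µM overlapped. The control values rest on an estimated 3.21, 16.1 and 19.8 fragments, against 79.2, 91.0 and 118 at 5 µM. The mean at 5 µM was 5.13 times that of the control (log2 difference 2.52, standard error 0.54, limma adjusted p = 0.0128), and without 5 µM replicate 3 the adjusted p was 0.0561. At 10 µM it was 3.52 times the control and did not pass the test (log2 difference 1.94, standard error 0.64, limma adjusted p = 0.0787). Rescaled by median of ratios, the RASSF8 difference at 10 µM was 2.18 and was not called (adjusted p = 0.0535), nor was it with the replicate block (0.0937), with no filter on low values (0.0897) or in any of 6 fits with a replicate left out (0.108 to 0.163). It was called with a pseudocount of 1000 (adjusted p = 0.0351), with all 9 samples in 1 fit (adjusted p = 0.0277) and over genes with at least 10 estimated fragments (adjusted p = 0.041).

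The antisense gene at the RASSF8 start changed with it. RASSF8-AS1, a long non-coding RNA listed by its LOC identifier, lies on the minus strand of chromosome 12 from 26089616 to 26112698, and RASSF8 on the plus strand from 26111165 to 26232825. The antisense gene was listed at 0 in all 3 control libraries, at 9290.5, 10401 and 8034 FPKM at 5 µM, and at 8792, 4632 and 7164 FPKM at 10 µM. Every treated culture was above 0. It was called up at 5 µM (limma adjusted p = 0.000202) and at 10 µM (limma adjusted p = 0.00294), and the 2 doses did not differ beyond their spread (log2 difference -0.47, standard error 0.32, limma adjusted p = 0.391). Both comparisons use the same control cultures. The 2 genes share 245 of the 8077 exonic bases of RASSF8 (3.03%).

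**Figure D2:**
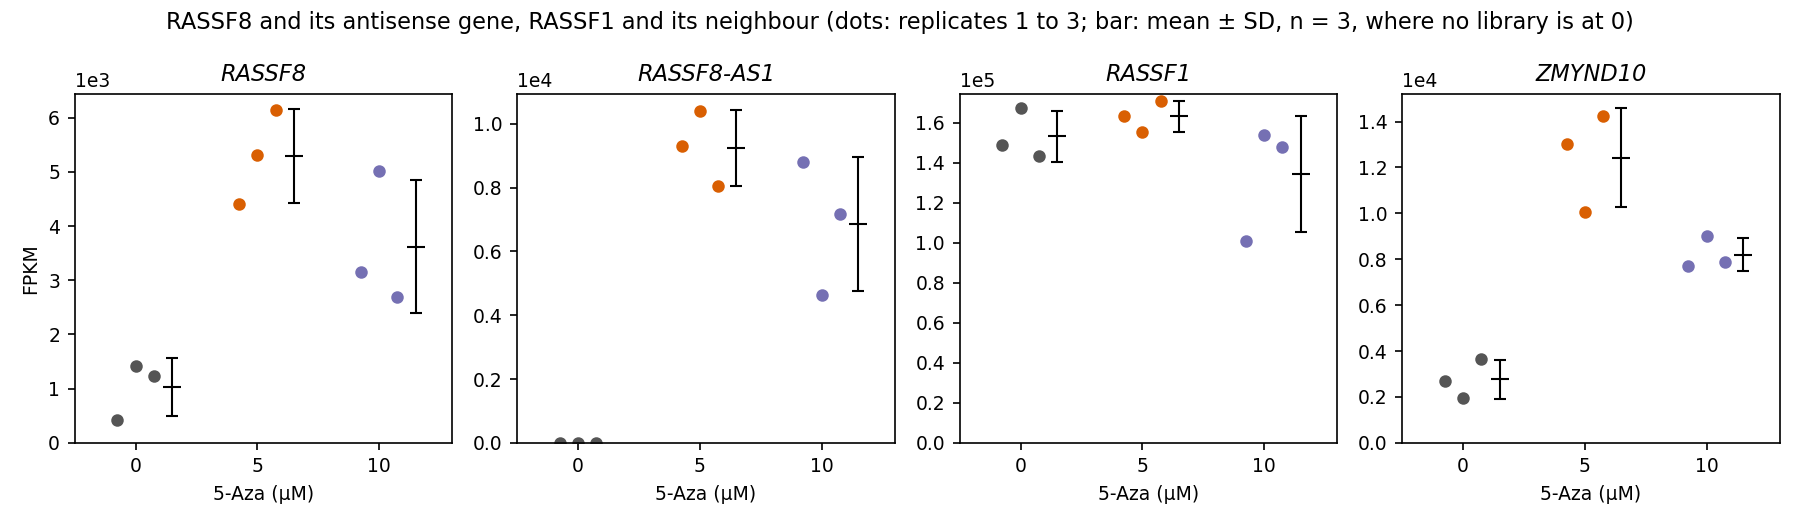
FPKM of RASSF8, its antisense gene RASSF8-AS1, RASSF1 and its neighbour ZMYND10 by 5-Aza dose (dots: replicates; bars: mean ± SD, n = 3, drawn where no library is at 0). RASSF8, RASSF8-AS1 and ZMYND10 are higher in every treated culture than in every control culture, whereas the RASSF1 dots of the control and treated cultures overlap.

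RASSF2, a C-terminal member that binds the MST kinases, was listed at 0 in all 3 control libraries. At 5 µM it was 249.9, 658 and 568 FPKM, and at 10 µM it was 0, 149.7 and 177 FPKM. All 5 µM cultures were above 0, and they lay above all 10 µM cultures. Those levels rest on an estimated 4.04, 10.1 and 9.82 fragments at 5 µM and on 0, 2.02 and 2.02 at 10 µM. RASSF2 was called up at 5 µM (limma adjusted p = 0.00141) and not at 10 µM (limma adjusted p = 0.239), and with a pseudocount of 1000 its adjusted p at 5 µM was 0.0197 but its log2 difference, 0.57, missed the fold threshold. No fold is given against a group listed at 0. Even at 5 µM it was the lowest member, at 0.0291% ± 0.0130 (SD, n = 3) of the family sum. RASSF2 lies on the minus strand of chromosome 20 from 4760669 to 4804254.

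Marker genes were read beside these rises. The summed FPKM of the 8 colon epithelial markers was 76469021 to 91570667 in the control, 31231312 to 35606779.5 at 5 µM and 24925601 to 43216389.6 at 10 µM. KRT8 (mean 39382000 FPKM) and KRT18 (mean 32982000 FPKM) made up most of the control sum. At 5 µM KRT8 and KRT18 were called down and CEACAM5 up, while KRT20 (log2 difference -0.46), VIL1 (-0.47) and CDX2 (-0.73) were lower within 2-fold. EPCAM (-0.23, limma adjusted p = 0.197) and CDH1 (-0.06, limma adjusted p = 0.594) did not pass the test at 5 µM. CDX2 and KRT20 were called down at 10 µM. The 10 µM calls held after rescaling (-1.14 for CDX2 and -1.06 for KRT20), and with a replicate left out they held in 5 of 6 fits for CDX2 and 1 of 6 for KRT20. The summed FPKM of 5 stromal and endothelial markers (COL1A1, COL3A1, DCN, PECAM1 and VWF) was 7733 to 12348 in the control, 41048 to 54164 at 5 µM and 21407 to 28487 at 10 µM. COL1A1, PECAM1 and VWF were called up at 5 µM and COL1A1 at 10 µM, and with a replicate left out the PECAM1 call held in 2 of 6 fits and the 10 µM COL1A1 call in 3 of 6. COL3A1 was listed at 0, 0 and 135 FPKM in the control, 180.2, 442 and 337 at 5 µM and 114, 144 and 169.8 at 10 µM, without a call. DCN was listed at 0 in all 5 µM libraries, in 2 of 3 control libraries and in 2 of 3 libraries at 10 µM. Of the blood cell markers, CD14 was 36125 to 48157 FPKM in the control, 35247 to 41278 at 5 µM and 40013 to 50081 at 10 µM. PTPRC, which marks all white blood cells, was listed at 0 in 2 of 3 control libraries and reached 983 FPKM at 5 µM, and CD3E was called up at 5 µM on an estimated 2.64, 2.64 and 3.51 fragments, a CD3E call lost with a pseudocount of 1000 (log2 difference 0.85). The part of any other cell type in the RASSF values was not tested.

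RASSF3, a C-terminal member linked to MDM2 and p53, was lower in all treated cultures. Its FPKM was 490333, 503218 and 430231 in the control, 248686, 325368 and 316897 at 5 µM, and 210192, 348656 and 219760 at 10 µM. No treated culture reached the lowest control culture. The mean at 5 µM was 0.626 times that of the control (log2 difference -0.68, standard error 0.12, limma adjusted p = 0.0066) and at 10 µM 0.547 times (log2 difference -0.91, standard error 0.21, limma adjusted p = 0.0319). Rescaled by median of ratios, the 10 µM difference was -0.67 (adjusted p = 0.0139). Without 10 µM replicate 2, the highest of its group, RASSF3 was called down at 10 µM (log2 difference -1.14, adjusted p = 0.00424), and in the fit of all replicates it stayed within 2-fold. Without any other of the 6 replicates the RASSF3 adjusted p at 10 µM was above the threshold, at 0.0688 to 0.123. RASSF3 lies on the plus strand of chromosome 12 from 64900781 to 65091344.

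RASSF10, an N-terminal member known for promoter methylation in leukaemia and other tumours, was lower and not higher after 5-Aza. Its FPKM was 69422, 74381 and 68924.5 in the control, 41045, 47243 and 41484 at 5 µM, then 41756, 62372 and 42429.5 at 10 µM. The control cultures lay above all treated cultures, and 10 µM replicate 2 came nearest to them. At 5 µM the mean was 0.610 times the control (log2 difference -0.72, standard error 0.09, limma adjusted p = 0.00183). At 10 µM it was 0.689 times and did not pass the test (log2 difference -0.56, standard error 0.19, limma adjusted p = 0.0824), with -0.32 after rescaling. RASSF10 is a single-exon gene on the plus strand of chromosome 11 from 13030863 to 13033666.

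RASSF7 fell at 5 µM and not at 10 µM. Its FPKM was 1399040, 1330560 and 1354920 in the control, 1131890, 981708 and 926268 at 5 µM, then 1228180, 1474200 and 1719390 at 10 µM. The 5 µM cultures lay below all others, and the 10 µM cultures spread to both sides of the control. At 5 µM the mean was 0.744 times that of the control (log2 difference -0.43, standard error 0.09, limma adjusted p = 0.0118, and 0.0596 for RASSF7 with all 9 samples in 1 fit). The 10 µM cultures differed from the control by 0.10 on the log2 scale (standard error 0.18, limma adjusted p = 0.693, and 0.34 after rescaling). From 5 µM to 10 µM RASSF7 was 1.45 times as high, without passing the test (log2 difference 0.53, standard error 0.19, limma adjusted p = 0.143, and 0.74 with adjusted p = 0.0561 after rescaling). RASSF7 lies on the plus strand of chromosome 11 from 560404 to 564025.

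RASSF9, an N-terminal member that binds the peptide-amidating enzyme PAM on recycling endosomes, was 20231, 19779 and 16919 FPKM in the control, 15819.6, 16226 and 15536 at 5 µM, and 14023, 16789 and 10757 at 10 µM. Every treated culture lay below every control culture. The differences did not pass the test at 5 µM (log2 difference -0.25, standard error 0.14, limma adjusted p = 0.183) or at 10 µM (log2 difference -0.47, standard error 0.25, limma adjusted p = 0.212, and -0.23 after rescaling). The gene lies on the minus strand of chromosome 12 from 86194481 to 86230187.

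**Figure D3:**
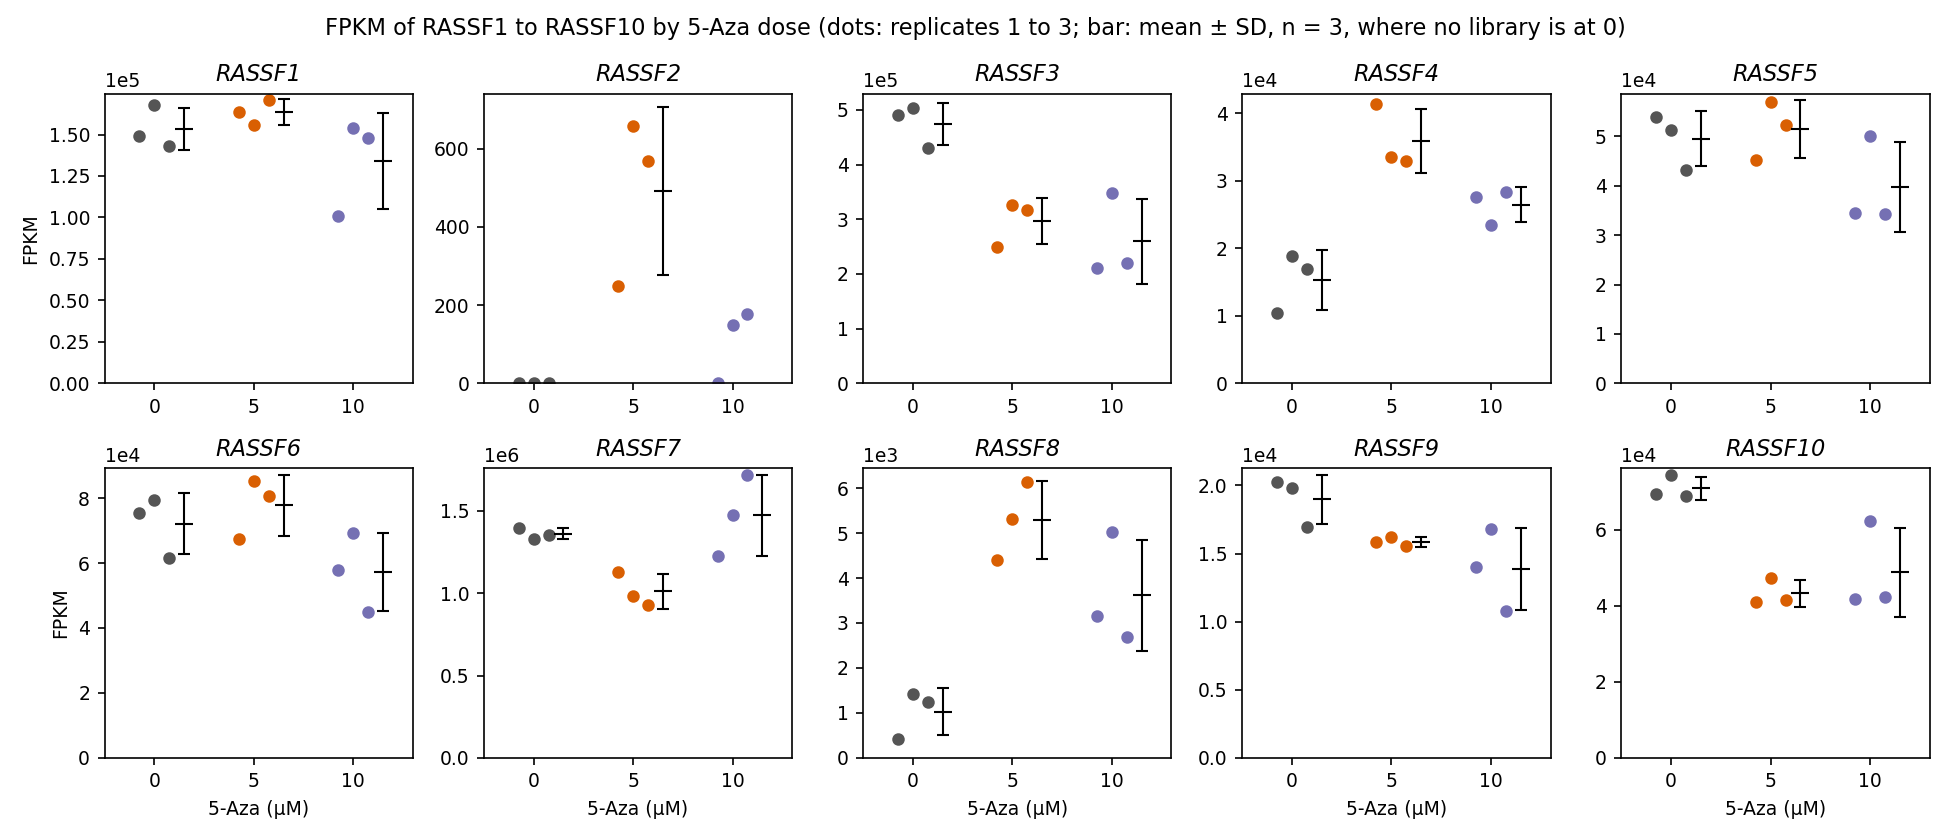
FPKM of each of the 10 members at 0 µM, 5 µM and 10 µM 5-Aza (dots: replicates 1 to 3; bars: mean ± SD, n = 3, drawn where no library is at 0; axes start at 0). RASSF4 and RASSF8 are higher and RASSF3, RASSF9 and RASSF10 lower in all treated cultures than in all control cultures, and RASSF2 is above 0 in treated cultures alone.

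The remaining C-terminal members had overlapping groups in both comparisons with the control and did not pass the test. RASSF1, whose product stabilises microtubules and activates MST kinases, was 149096, 167537 and 143335 FPKM in the control, 163688, 155523 and 171087 at 5 µM, and 100914, 153961 and 147834 at 10 µM. Control and treated ranges overlapped at both doses. The log2 difference at 5 µM was 0.09 (standard error 0.08, limma adjusted p = 0.403). At 10 µM it was -0.21 (standard error 0.19, limma adjusted p = 0.443), and its sign turned to 0.03 after median-of-ratios scaling. RASSF1 makes a long form, RASSF1A, whose promoter is the one methylated in tumours, and a short form, RASSF1C, from an internal start, and a value per gene does not separate them. The antisense RNA RASSF1-AS1, over 17.89% of the exonic bases of RASSF1, was not analysed here. RASSF1 lies on the minus strand of chromosome 3 from 50367213 to 50378411.

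RASSF5, known as NORE1 or RAPL and an effector of RAP1 in lymphocyte adhesion, ranged from 43263 to 54041 FPKM in the control, 45259.9 to 56903 at 5 µM and 34342 to 50187 at 10 µM. The 3 ranges overlapped. Its log2 difference was 0.06 at 5 µM (standard error 0.13, limma adjusted p = 0.745) and -0.34 at 10 µM (standard error 0.20, limma adjusted p = 0.271, and -0.09 after rescaling). RASSF6, which binds MST kinases and MDM2, ranged from 61707 to 79349 FPKM in the control, 67297 to 85417 at 5 µM and 44853 to 69136 at 10 µM. Here too the ranges overlapped. The log2 difference of RASSF6 was 0.11 at 5 µM (standard error 0.14, limma adjusted p = 0.537) and -0.35 at 10 µM (standard error 0.20, limma adjusted p = 0.245, and -0.11 after rescaling). RASSF5 lies on the plus strand of chromosome 1 from 206680864 to 206762780, and RASSF6 on the minus strand of chromosome 4 from 74437267 to 74486348.

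At 10 µM 5-Aza, none of the members was called against the control. Among all 18928 genes tested, 4.07% were called up and 3.40% down, and the 771 called up and 644 called down became 1125 and 284 after median-of-ratios scaling. RASSF3 passed the adjusted p alone, as 9.71% of all genes did downward and 5.39% upward at any fold. The groups did not overlap for 5 members, RASSF3, RASSF4, RASSF8, RASSF9 and RASSF10, beside 41.1% of all genes tested. The median log2 difference was -0.27 over the members, -0.15 over all genes tested and -0.23 over genes above 0 in all 6 libraries. RASSF2, RASSF4 and RASSF8, the members called at 5 µM, were above the control mean at 10 µM as well. The comparisons with the control share its 3 cultures, so they are not independent of each other.

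Between 10 µM and 5 µM no member was called either. The background was 0.129% of 20085 genes called up and 4.82% called down, or 0.319% and 5.85% by the adjusted p at any fold. The groups did not overlap for RASSF1, RASSF2 and RASSF4, lower at 10 µM, and for RASSF7, higher at 10 µM, beside 29.6% of all genes tested. The median log2 difference was -0.35 over the members, -0.31 over all genes tested and -0.24 over genes above 0 in all 6 libraries. At 10 µM 2 of the 10 members (20%) were higher, beside 24.4% of all genes tested. RASSF4 differed by -0.44 on the log2 scale (standard error 0.18, limma adjusted p = 0.182), which rescaling reduced to -0.24, and RASSF8 by -0.59 (standard error 0.37, limma adjusted p = 0.355), or -0.38 rescaled. A test of 3 cultures against 3 has little room: the smallest p of the exact 2-sided permutation test is 0.1, which all 4 members without overlap gave.

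**Figure D4:**
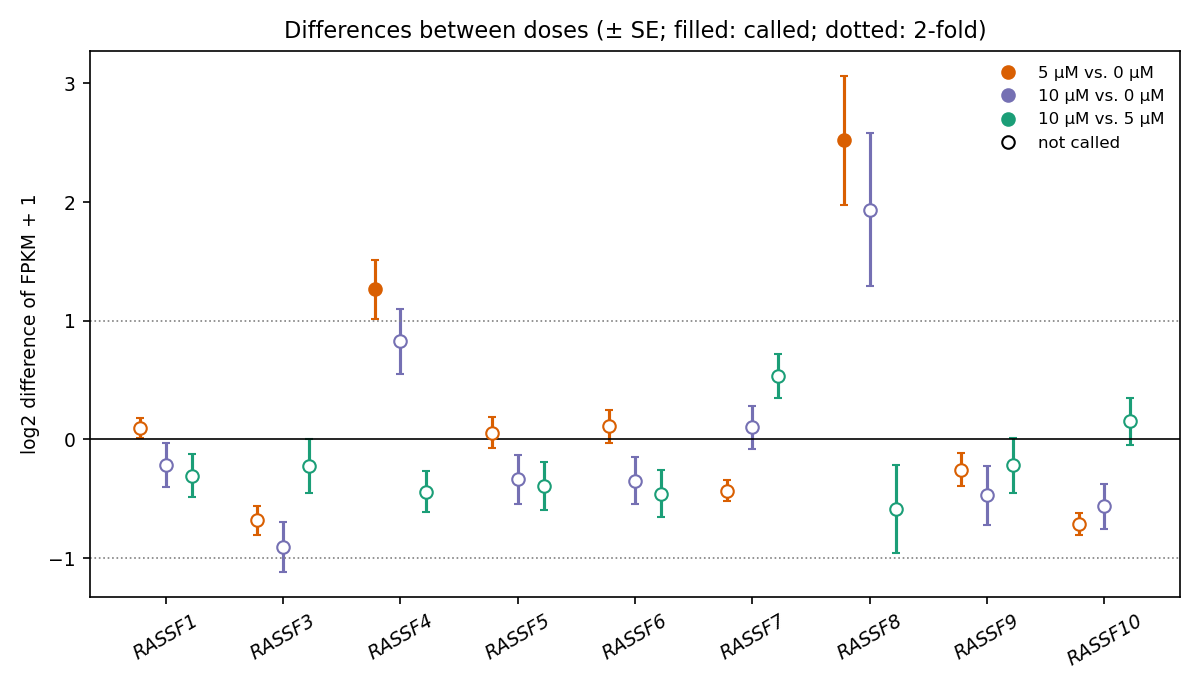
Log2 difference of FPKM + 1 (y axis) for 9 members in 3 comparisons of 5-Aza doses, with bars of ± 1 standard error, filled dots for called differences and dotted lines at 2-fold. RASSF4 and RASSF8 are called up for 5 µM vs. 0 µM, RASSF3 comes nearest to the lower line at 10 µM, and RASSF2 is left out because its control is listed at 0.

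The kinases that the SARAH domain reaches were present, and their mean shifts from the control stayed within 2-fold at both doses. All 11 Hippo kinases and upstream regulators were tested and none was called in any comparison. STK4, encoding MST1, differed by 0.24 at 5 µM (limma adjusted p = 0.0736) and STK3, encoding MST2, by -0.38 (limma adjusted p = 0.152). At 10 µM vs. 0 µM STK4 differed by -0.24 (limma adjusted p = 0.393) and STK3 by -0.61 (limma adjusted p = 0.0892). SAV1, the scaffold of these kinases, was higher within 2-fold at 5 µM (log2 difference 0.65, limma adjusted p = 0.00754), while the kinase LATS1 (-0.42, limma adjusted p = 0.0277) and WWC1 (-0.46, limma adjusted p = 0.00469), an upstream regulator, were lower within 2-fold. At 10 µM vs. 0 µM the median log2 difference of the 11 genes was -0.40, beside -0.23 among genes above 0 in all 6 libraries. AJUBA, another upstream regulator, alone passed the adjusted p there (-0.71, limma adjusted p = 0.0305), while LATS1 did not (-0.87, limma adjusted p = 0.175). The 10 µM vs. 0 µM differences of these genes are given without rescaling, which shifts them up by 0.24.

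Downstream, 1 of 6 coactivators and TEAD factors and 1 of 6 target genes were called up at 5 µM, beside 14.1% of all genes tested. Members of both lists were also lower within 2-fold: TEAD4 with a log2 difference of -0.83 at 5 µM (limma adjusted p = 0.000773), and AMOTL2 with -0.69 at 5 µM (limma adjusted p = 0.00145) and -0.85 at 10 µM (limma adjusted p = 0.0208, without rescaling). CTGF was higher within 2-fold at 5 µM (0.74, limma adjusted p = 0.00215). WWTR1, the coactivator TAZ, was 475, 636 and 599 FPKM in the control, 4527, 7980.3 and 6396 at 5 µM, then 2117, 1812 and 1222 at 10 µM. The groups were fully apart, with 5 µM highest and 10 µM between, and the control values rest on an estimated 2.97 to 8.01 fragments. WWTR1 rose at 5 µM by 3.44 (standard error 0.39, limma adjusted p = 0.00116) and was lower at 10 µM than at 5 µM by -1.87 (standard error 0.41, limma adjusted p = 0.0424), a call lost after rescaling (-1.67, adjusted p = 0.0538) and kept in 2 of 6 fits with a replicate left out. AXL, a receptor tyrosine kinase and YAP target, rose at 5 µM (log2 difference 1.70, standard error 0.24, limma adjusted p = 0.0026) and fell from 5 µM to 10 µM (-1.82, standard error 0.18, limma adjusted p = 0.00416, and -1.62 for AXL after rescaling). CRIM1 was called down at 10 µM vs. 0 µM (-1.06, limma adjusted p = 0.0263), but the rescaled CRIM1 difference of -0.82 was not called, and 1 of 6 fits with a replicate left out called it.

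MRAS, a RAS GTPase of the kind that the RAS-association domain can bind, was called up at 5 µM. MRAS was 1806, 4651 and 3073 FPKM in the control, 13333, 16472 and 19644 at 5 µM, and 8531, 13784.5 and 9611 at 10 µM. All treated cultures lay above the control. The difference was 2.46 at 5 µM (standard error 0.39, limma adjusted p = 0.00382) and 1.82 at 10 µM (standard error 0.45, limma adjusted p = 0.0387), and at 10 µM the MRAS call was lost in each of 6 fits with a replicate left out (adjusted p from 0.0563 to 0.102), while the rescaled MRAS difference was 2.06 and called. Of 11 direct binding partners of RASSF proteins, none was called against the control. By the adjusted p at any fold, 1 was higher and 4 were lower at 5 µM, beside 21.3% and 17.7% of all genes tested. CDC20, the mitotic activator held back by RASSF1A, was called down from 5 µM to 10 µM (-1.20, standard error 0.25, limma adjusted p = 0.0385), and 1 of 6 fits with a replicate left out called it (CDC20 adjusted p from 0.00756 to 0.200, and a difference of -0.98 without 10 µM replicate 1). After rescaling the CDC20 difference was -1.001 and still called. Against the control, CDC20 was higher within 2-fold at 5 µM (0.91, limma adjusted p = 0.0177). It did not pass the test at 10 µM vs. 0 µM (-0.29, limma adjusted p = 0.507).

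**Figure D5:**
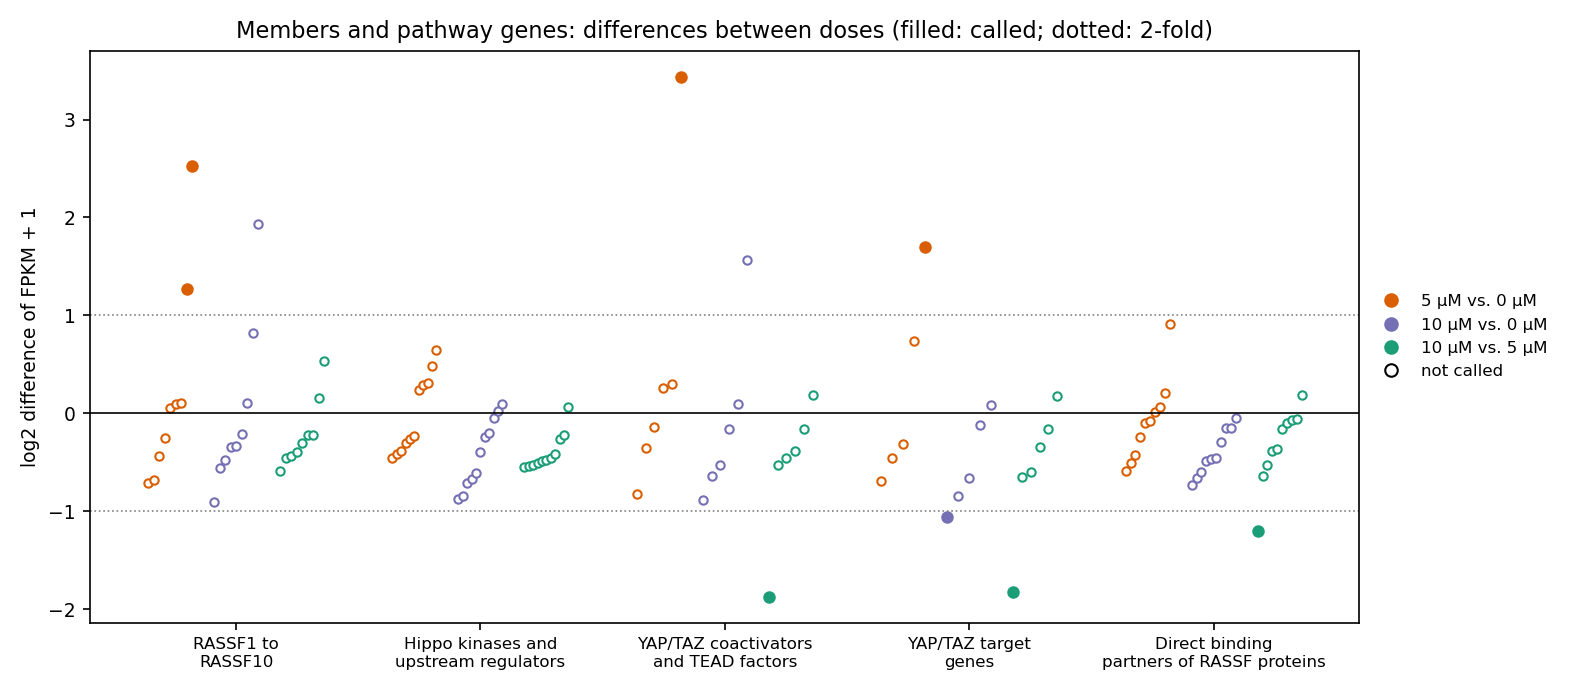
Log2 differences of FPKM + 1 (y axis) of the members and of 4 lists of pathway genes in 3 comparisons of 5-Aza doses (1 dot a gene, filled where called, dotted lines at 2-fold, genes with a library listed at 0 left out). No dot of the Hippo kinases is filled, WWTR1 is the highest dot at 3.44, and single genes of the other lists are called.

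The nearest protein-coding genes on each side were read to place the members in their surroundings. ZMYND10, a cilia gene 129 bases from RASSF1 on the same strand, was 2688, 1942 and 3663 FPKM in the control, 13005, 10050.4 and 14246 at 5 µM, and 7692, 9005 and 7899.6 at 10 µM. Its treated cultures all lay above the control cultures. The 129 bases separate the 3′ end of ZMYND10 from the annotated 5′ end of RASSF1 at 50378411, and the ZMYND10 start lies farther off, at 50383163. ZMYND10 rose by 2.20 at 5 µM (standard error 0.32, limma adjusted p = 0.00266) and by 1.61 at 10 µM (standard error 0.38, limma adjusted p = 0.0346), the latter called in 2 of 6 fits with a replicate left out, and 1.85 for ZMYND10 after rescaling. TUSC2, 1530 bases from RASSF1 on the other side, differed by 0.02 at 5 µM (standard error 0.11, limma adjusted p = 0.924).

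Other neighbours moved with or against their RASSF gene. LRRC56, 5491 bases from RASSF7, rose at 5 µM by 1.09 (standard error 0.13, limma adjusted p = 0.00152) and at 10 µM by 1.05 (standard error 0.13, limma adjusted p = 0.00653, LRRC56 rescaled 1.29, called in 5 of 6 fits with a replicate left out), while RASSF7 was not called at either dose. BHLHE41, a circadian repressor 40137 bases from RASSF8, fell at 5 µM by 1.59 on the log2 scale (standard error 0.09, limma adjusted p = 0.000187), and it was called down at 10 µM (-1.23, limma adjusted p = 0.00681), where the rescaled BHLHE41 difference of -0.99 was not called. TMEM72, 22396 bases from RASSF4, was listed at 0 in the control and at 10 µM and at 1091, 1148 and 339.9 FPKM at 5 µM (limma adjusted p = 0.0011). The TMEM72 values rest on an estimated 9.09, 9.09 and 3.03 fragments, and the call was lost with a pseudocount of 1000 (log2 difference 0.86). ZNF22 on the other side was lower by 0.87 on the log2 scale (log2 difference -0.87, limma adjusted p = 0.00316). TBK1, a kinase gene 4886 bases from RASSF3, was higher within 2-fold at 5 µM (log2 difference 0.51, standard error 0.09, limma adjusted p = 0.00535), where RASSF3 was lower. The neighbours of RASSF2 (PRND and SLC23A2), RASSF9 (ALX1 and NTS) and RASSF10 (TEAD1 and ARNTL) were not called in any comparison.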

How the data were processed

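RNA was sequenced from 9 HT-29 cultures, 3 each at 0 µM, 5 µM and 10 µM 5-Aza, grouped by the sample titles. Per the paper's methods, the authors used FASTX-Toolkit to filter reads, TopHat to align them to hg19 (GRCh37) and Cufflinks to compute FPKM per gene. The deposited files hold these FPKM values, with no counts, and the annotation and the counting by strand are not given in the sources used here. Library size enters FPKM as a divisor, so a shift in total RNA content is not visible. Cufflinks shares ambiguous fragments between overlapping genes.

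FPKM of symbols on more than 1 entry (543 of 23284) were summed and transformed as log2(FPKM + 1). Each comparison used limma 3.58.1 under R 4.3.3 (lmFit, eBayes with trend) on the 6 samples of its groups, without a replicate block, over genes that reached 10 FPKM in at least 1 sample. This filter removed few genes, with 20051 tested at 5 µM vs. 0 µM and 20115 without it. A minimum of 10 estimated fragments in 1 sample left 15992. RASSF2 at 149.7 FPKM (10 µM replicate 2) rested on an estimated 2.02 fragments, so 10 FPKM and the pseudocount of 1 are each below 1 fragment there. Single members were also compared by an exact 2-sided permutation test. The members, pathway and marker lists were chosen with earlier results of these data known. Named are all members, list genes called in any comparison, other list genes of stated role, overlapping genes, the nearest protein-coding genes and the 5 genes most like RASSF2. Of list genes that were not called, STK4, STK3, SAV1, LATS1, WWC1, AJUBA, TEAD4, AMOTL2, CTGF, COL3A1, DCN, PTPRC and CD14 were named, and the differences of EPCAM, CDH1 and VIL1 given, after their values were seen. Some list genes and neighbours are not reported here.

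Depth was estimated from the steps of low values: 46 of 46 values of microRNA genes of 110 nucleotides were whole multiples of 1 step per library within 0.01. For longer genes the step followed annotated length, and 383 of 630 genes with clear steps lay within 15% of that relation. Estimated fragments were given to 20861 symbols and were not tested as counts. Positions come from the GRCh37 annotation and promoters from the RefSeq table. Fits were tested on simulated data, with changes placed only in genes with many fragments. Genes near 0 in the control, such as RASSF2, were left out of that simulation, so it does not bear on their calls. Alternatives were pseudocounts of 0.1 and 1000, no filter, at least 10 estimated fragments, no fold threshold, treat, all 9 samples, the block, median-of-ratios scaling, the largest entry of repeated symbols and each replicate left out. Tables used pandas 2.3.3, numpy 2.4.6 and scipy 1.17.1.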

Additional observations from a re-analysis of the deposited data

How the results depend on the processing

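Of 479 member values over the alternatives, 460 kept their direction and their side of the threshold, 4 lost and 9 gained a call, and 6 changed sign. The sign changes were of members near 0: RASSF5, which also changed sign without 5 µM replicate 2, at 5 µM vs. 0 µM was -0.0375 without 0 µM replicate 3 (up to 0.147 with another left out), RASSF6 was -3.311e-05 without 0 µM replicate 3 (up to 0.209), RASSF1 at 10 µM vs. 0 µM was 0.0281 after median-of-ratios scaling, RASSF7 was -0.0167 without 10 µM replicate 3 (up to 0.226), and RASSF10 at 10 µM vs. 5 µM was -0.0364 without 10 µM replicate 2 (up to 0.253). The cause was not tested.

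The count of members called up at 5 µM (3) was 1 under treat against a fold of 2, RASSF2, and 2 to 3 with a replicate left out, RASSF8 being lost without 5 µM replicate 3. It was 2 with a pseudocount of 1000, RASSF2 being lost. With no fold threshold 3 members were called down at 5 µM (RASSF3, RASSF7 and RASSF10) and 1 at 10 µM (RASSF3). At 10 µM, 1 member was called up with a pseudocount of 1000, with at least 10 estimated fragments and with all 9 samples (each RASSF8), and 1 after median-of-ratios scaling (RASSF4). With a replicate left out, 0 to 1 were called down at 10 µM, RASSF3 without 10 µM replicate 2.

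Over all genes at 5 µM vs. 0 µM, 3254 were called, 7816 with no fold threshold and 1533 under treat. At 10 µM vs. 0 µM the 1415 calls became 2857 and 161, and 565 (without 10 µM replicate 3) to 2319 (without 10 µM replicate 2) with a replicate left out. At 10 µM vs. 5 µM the 995 calls became 381 under treat and 188 (without 5 µM replicate 3) to 1937 (without 10 µM replicate 2) with a replicate left out. The replicate numbers share only a number: deviations of same-numbered samples correlated between -0.0743 and 0.086 over 9 pairs, those of different numbers between -0.156 and 0.1002 over 18 pairs. With the replicate block 2967, 1194 and 418 genes were called in the 3 comparisons, and the block changed no member's call.

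RASSF2, and RASSF8 in the control, rest on few fragments, and counting error there is not modelled by the fit. RASSF2 was not tested at 10 µM vs. 0 µM under the minimum of 10 estimated fragments. Values at 10 µM shift with scaling.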

Other observations

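Among 20224 genes, those whose log2(FPKM + 1) over the 9 samples was most correlated with RASSF2 were FAM155A (Pearson r 0.999), IL1RAPL1 (0.999), STC1 (0.999), GAGE2D (0.999) and MTNR1A (0.998). FAM155A is a subunit of the sodium leak channel NALCN, STC1 a secreted glycoprotein hormone and MTNR1A a melatonin receptor. GAGE2D belongs to a cluster of near-identical cancer-testis genes, so its value is uncertain. All 5 are, like RASSF2, listed at 0 in some library and reach at most 24.5 estimated fragments, so they share the 0 values and the low depth, and no test is given.

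Among the neighbours, CXCL8 (listed as IL8), a neutrophil chemokine 119887 bases from RASSF6, rose at 5 µM by 1.85 on the log2 scale (standard error 0.17, limma adjusted p = 0.000642) and at 10 µM by 1.86 (standard error 0.31, limma adjusted p = 0.0142), with 9357.3 ± 1594 (SD, n = 3) FPKM in the control and 33499 ± 2018 (SD, n = 3) at 5 µM. RASSF6 itself differed from the control by 0.11 at 5 µM. DYRK3, a kinase gene 46100 bases from RASSF5, was called up at 5 µM (log2 difference 1.24, standard error 0.38, limma adjusted p = 0.0446), a call that held in 1 of 6 fits with a replicate left out.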
